A study of Mus musculus with 6 samples.

Results

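The mouse genes named Zfp and a number encode zinc finger proteins. All genes with such a name and a mean of at least 1 FPKM (fragments per kilobase of exon, scaled to the depth of the sample) over the 6 samples were taken as members. These were 258 of the 21899 genes in the deposited table, out of 370 genes with such a name. Of the other genes with such a name, 99 had a mean under 1 FPKM and 13 were listed at 0 in every sample. The members were chosen by their name and by this mean over all 6 samples, and the family was taken up because a shift it shares between the groups was already known, so that its differences between groups are given as a description.

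RNA was sequenced from tumors grown under the skin near the left armpit of adult male C57BL/6 mice from LLC-luc cells, cultured Lewis lung carcinoma cells with a luciferase label that form tumors in this strain. The Laser group (n = 2) was irradiated without a photosensitizer. The PC-La group (n = 2) received phycocyanin (PC), a light-absorbing protein of cyanobacteria, before irradiation, and the SePC-La group (n = 2) received selenium-enriched phycocyanin (SePC). The paper places the injections beneath or beside the tumor. All groups were irradiated, with a laser of 620 nm for 10 min by the labels, 4 h after PC or SePC was given, every 5 days, and no sample was free of light. The paper gives a longer wavelength and a shorter interval between injections. It states that the laser group was given normal saline of the same volume. An exact age is not given in the sources used here. The labels give separate samples without naming the mice, so the p-values measure the spread between these samples.

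A Cys2-His2 zinc finger is a short fold in which a pair of cysteines and a pair of histidines hold a zinc ion, and a row of such fingers reads a stretch of DNA. Many of these proteins begin with a KRAB box, which binds the co-repressor Trim28 (KAP1). Trim28 brings the histone methyltransferase Setdb1 and heterochromatin proteins to the bound DNA, and the family is best known for silencing retroviral elements and for keeping imprints. Genes with a KRAB box arose by local duplication and stand in clusters.

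A KRAB box was found in the translated coding sequence of 147 members and a SCAN domain, a pairing domain of the family, in 11. The median member had 579 residues and 10 fingers by pattern, with 12 fingers in the KRAB members and 8 in the rest. Of the members, 124 lay in clusters, runs of at least 3 genes of the family with starts less than 200 kb apart, and 102 of the 124 had a KRAB box. To show the domain that most members carry, lower or not, the coding stretch of the KRAB A box (117 bases, 39 residues) is given for the 5 members with the smallest p among those lower in SePC-La than in Laser. All 5 had the box, while 12 of the 44 lower members had none. On GRCm38 the genes are Zfp758 (chr17:22361453-22377281, plus strand), Zfp266 (chr9:20495068-20521417, minus strand), Zfp273 (chr13:67813740-67827002, plus strand), Zfp970 (chr2:177464733-177478129, plus strand) and Zfp182 (chrX:21028939-21062316, minus strand). The stretches come from GENCODE M21 transcripts, 5′ to 3′, and capitals mark the codons of the 14 residues that are the same in all 5 proteins.
Zfp758: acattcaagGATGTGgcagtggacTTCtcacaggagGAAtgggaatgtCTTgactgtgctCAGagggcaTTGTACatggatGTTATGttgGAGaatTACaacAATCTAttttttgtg
Zfp266: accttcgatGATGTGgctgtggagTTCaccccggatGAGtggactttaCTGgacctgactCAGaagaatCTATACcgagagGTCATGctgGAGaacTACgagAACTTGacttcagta
Zfp273: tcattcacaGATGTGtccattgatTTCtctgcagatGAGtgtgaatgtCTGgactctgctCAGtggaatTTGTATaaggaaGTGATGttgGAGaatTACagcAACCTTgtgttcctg
Zfp970: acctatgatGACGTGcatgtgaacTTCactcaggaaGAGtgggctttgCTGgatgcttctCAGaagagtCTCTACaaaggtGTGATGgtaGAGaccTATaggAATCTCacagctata
Zfp182: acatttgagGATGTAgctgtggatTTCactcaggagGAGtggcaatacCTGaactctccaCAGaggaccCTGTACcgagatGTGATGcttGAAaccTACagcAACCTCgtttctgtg

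Between pairs of these 5 stretches, 16 to 26 of the 39 residues were identical. The finger gives the family its name, and 5 members (Zfp330, Zfp36, Zfp365, Zfp703 and Zfp839) had none by this pattern. A finger of Zfp260 (chr7:30094777-30107622, plus strand), a member without a KRAB box, and a finger of Zfp266 are given with the linker that follows, as 78 coding bases each. Neither need be the last finger of its protein. Capitals mark the codons of the cysteines and histidines that hold the zinc ion.
Zfp260: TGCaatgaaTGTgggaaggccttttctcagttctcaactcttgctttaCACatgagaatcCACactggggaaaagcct
Zfp266: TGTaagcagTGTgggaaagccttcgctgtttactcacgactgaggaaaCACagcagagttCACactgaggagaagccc

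The summed level of the members was similar in PC-La and Laser and lower in SePC-La. It was 1489 and 1534 FPKM for Laser 1 and 2, 1511 and 1494 for PC-La 1 and 2, then 1300 and 1245 for SePC-La 1 and 2, with no overlap between SePC-La and the others. The group means were 1512 ± 32.5, 1502 ± 12.5 and 1273 ± 38.6 FPKM in this order (SD, n = 2 each). As a share of all FPKM, the members held 0.532% and 0.518% under Laser, 0.530% and 0.533% under PC-La, and 0.428% and 0.401% under SePC-La. The mean of log2(FPKM + 1) over the members was 2.44 and 2.45, 2.47 and 2.46, and 2.22 and 2.21 in the same order. The other 10595 genes tested had a mean of 3.48 ± 0.06 for Laser, 3.51 ± 0.001 for PC-La and 3.43 ± 0.06 for SePC-La (SD, n = 2 each), so that they were lower in SePC-La by less than the members were.

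**Figure D1:**
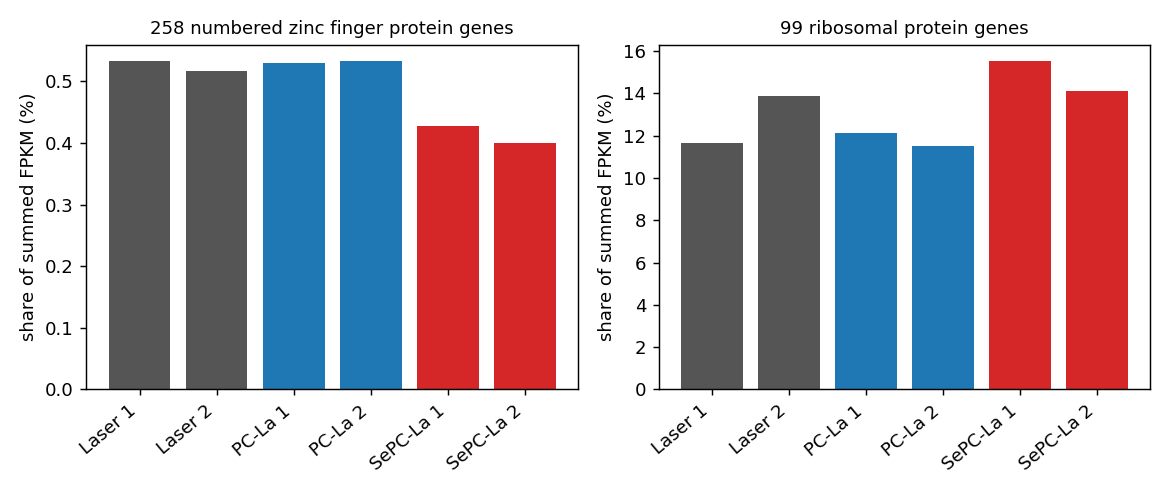
Share of the summed FPKM of each sample, in percent, held by the 258 members (left) and by the 99 listed ribosomal protein genes (right), with a bar for each of the 6 samples (gray, Laser; blue, PC-La; red, SePC-La). The members' share was 0.401% and 0.428% in the SePC-La samples and at least 0.518% in the other 4, and the ribosomal share was highest in the SePC-La samples, at 14.1% and 15.5%.

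The Laser samples were the least alike of the 3 pairs. Pearson correlations of log2 levels over genes (no substitute for replicates) were 0.946 within Laser, 0.992 within PC-La and 0.972 within SePC-La. Recovered depth was 14447792 to 17649489 reads, and the median member had 289 reads in a sample and no member fewer than 19. The 7 skeletal muscle markers summed to 154 FPKM in Laser 2 against 1.68 to 23.3 in the others. The summed markers of fibroblasts (6 genes) were 117 and 631 FPKM in SePC-La, 1562 and 1714 in PC-La and 283 and 1239 in Laser. Those of neutrophils (5 genes) were 330 and 434 in SePC-La against 31.9 to 148 in the others, and those of erythroid cells (5 genes) were 613 and 932 against 13.6 to 361. The 7 macrophage markers summed to 372 and 708 FPKM in SePC-La, 881 and 936 in PC-La and 641 and 686 in Laser. The tissue is labelled lung cancer, and all 5 markers of lung epithelium had means under 1 FPKM, 2 of them at 0, while 4 carcinoma genes (Krt8, Krt18, Krt19 and Epcam) summed to 188 to 277 FPKM. Their part in the members' levels was not tested. In such tumor tissue, fewer cells of a type and less RNA per cell cannot be told apart.

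Between PC-La and Laser the members were divided evenly. Differences are given as differences of log2(FPKM + 1), a scale that understates the change of low genes, with the standard error of the fit by limma. Of the 258 members, 131 were below 0 and 127 above, with a median of -0.003 (all 10853 genes tested, -0.001). At an unadjusted p under 0.05 there were 3 lower members, Zfp979, Zfp970 and Zfp326 (background over all genes, 2.4%), and 1 higher, Zfp954 (background 3.38%). The groups did not overlap in 42 lower members (background 21.6%) and 46 higher members (background 20.4%). On this scale no member met the criterion of the study, an absolute log2 difference over 1 with an unadjusted p under 0.05 (background 1.29%). The study applied it to fold changes from DESeq, so that the counts here are not those of the study. With a pseudocount of 0.1 the difference of Zfp979 was -1.38 (unadjusted p = 0.0193 by limma). No gene passed an adjusted p of 0.05 (background 0%), and the smallest adjusted p of a member, by limma with Benjamini-Hochberg adjustment, was 0.753. Without Laser 1, 21 members (8.14%) were lower and 29 higher and 2 passed the adjusted threshold, while over all genes 10.4% were lower, 14.4% were higher and 312 passed, so that the members were called less often than genes in general. Without Laser 2 the members' median was 0.009 (all genes, -0.014). Without PC-La 1 it was -0.008 (all genes, -0.005), and without PC-La 2 it was 0.019 (all genes, 0.006). Leaving out SePC-La 1 or SePC-La 2, which enter the shared spread, left the median at -0.003 in either case. With median-ratio scaling the split was 3 lower (all genes 2.17%) and 4 higher (all genes 3.72%). It was the same with quantile normalization (all genes 2.66% and 3.86%).

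Between SePC-La and Laser, 224 of 258 members (86.8%) were below 0, against 59.8% of all genes tested. The median difference was -0.24 (all genes, -0.06), with quartiles of -0.36 and -0.09. In ratios of mean FPKM the median was 0.805, and 125 members (48.4%) had a ratio under 0.8, against 22.3% of all genes, while 3 had a ratio over 1.25. At an unadjusted p under 0.05 there were 44 lower members, 17.1% of them (background 7.24%), and 1 higher member, Zfp622 (background 4.9%). The groups did not overlap in 128 lower members (background 25.6%) and 9 higher members (background 15%). On the log2(FPKM + 1) scale no member met the criterion of the study (background 0.682%). No gene passed the adjusted threshold (background 0%), and the smallest adjusted p of a member, by limma, was 0.376. Leaving out Laser 1 or Laser 2 kept the median at -0.24 in either case, with 64 (24.8%) and 42 (16.3%) lower members against 8.78% and 12.3% of all genes. The share below 0 was 79.1% of members without Laser 1 (all genes 55.4%) and 80.6% without Laser 2 (all genes 59.6%). The lower members were 26 (10.1%, all genes 4.04%) without SePC-La 1, 21 (8.14%, all genes 3.59%) without PC-La 1 and 20 (7.75%, all genes 3.58%) without PC-La 2. Without SePC-La 2 they were 20 (7.75%, all genes 7.85%), so that the share of lower members was then that of all genes. The medians without SePC-La 1 and 2 were -0.24 and -0.23. Without SePC-La 1 and 2, 84.1% and 83.3% of members were below 0, against 54.5% and 61.5% of all genes.

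Against PC-La, SePC-La had 222 members (86.0%) below 0, compared with 58.5% of all genes tested. The median difference was -0.24 (all genes, -0.07), and the median ratio was 0.801. At an unadjusted p under 0.05 there were 61 lower members, 23.6% of them (background 14.4%), and 4 higher members, Zfp622, Zfp979, Zfp13 and Zfp598 (background 9.91%). The groups did not overlap in 166 lower members (background 39.5%) and 13 higher members (background 26%). On the log2(FPKM + 1) scale Zfp704 alone among the members met the criterion of the study (background 2.98%). With a pseudocount of 0.1 the difference of Zfp979 was also over 1 (unadjusted p = 0.0244 by limma), so that the count depends on the scale. No gene passed the adjusted threshold (background 0%), and the smallest adjusted p of a member, by limma, was 0.126. With only the 4 samples compared in the fit, 81 members (31.4%) were lower, against 20.3% of all genes, and 5 of 258 members passed the adjusted threshold, against 637 of 10853 genes, a smaller share of the members than of all genes. The fits without Laser 1 and without Laser 2 left the median at -0.24 in either case (all genes, -0.07). Without PC-La 1 or PC-La 2 the median was -0.24 and -0.25 (all genes, -0.07 and -0.08). Without SePC-La 1 or SePC-La 2 it was -0.24 and -0.23 (all genes, -0.05 and -0.09). Without PC-La 2 or SePC-La 2 the share of members lower at an unadjusted p under 0.05 was near that of all genes. With quantile normalization the split was 20 lower and 5 higher, and the lower members were 7.75% against 10.6% of all genes, the reverse of the order above. This comparison shares its SePC-La samples with the one above, so that the 2 are not separate observations.

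**Figure D2:**
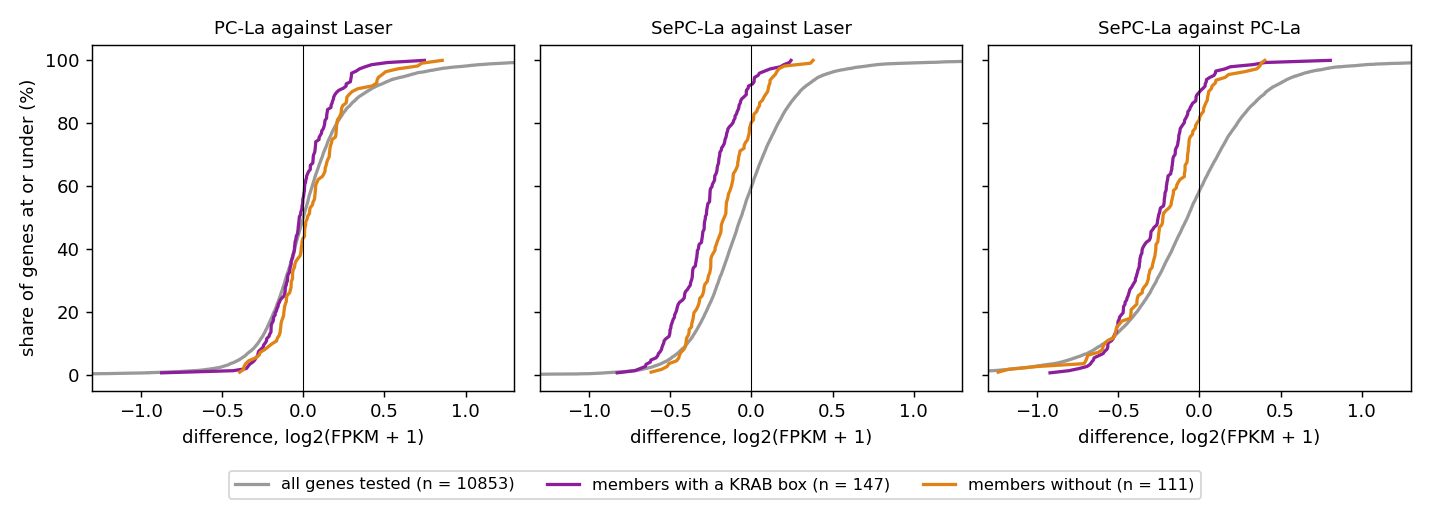
Cumulative share of genes, in percent, by difference of log2(FPKM + 1) in each of the 3 comparisons, for all 10853 genes tested (gray), the 147 members with a KRAB box (purple) and the 111 without (orange). For PC-La against Laser the 3 curves cross near 0, and in both comparisons of SePC-La both member curves lie to the left of the gray one, with medians of -0.28 and -0.25 for KRAB members and -0.16 and -0.22 for the rest.

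The KRAB members were the larger share of the lower ones. Of the 147, 135 (91.8%) were below 0 between SePC-La and Laser, 32 (21.8%, background 7.24%) were lower at an unadjusted p under 0.05 and none higher, and the median was -0.28. Of the 111 members without the box, 89 (80.2%) were below 0, 12 (10.8%, near the background) were lower and 1 was higher at that p, and the median was -0.16. Between SePC-La and PC-La the medians were closer, at -0.25 and -0.22, with 41 (27.9%) and 20 (18.0%) lower against a background of 14.4%. The mean log2 level of the KRAB members was 2.15 and 2.28 under Laser, 2.21 and 2.20 under PC-La and then 1.94 and 1.93 under SePC-La. That of the others was 2.83 and 2.68, 2.83 and 2.80, and 2.604 and 2.577. In both classes the SePC-La samples were below the other 4. Laser 2 was above Laser 1 in the KRAB members and below it in the others. The wider gap of the KRAB members from Laser in these means therefore rests on Laser 2. From Laser 1 alone, the KRAB members were no further down in SePC-La than the others. The number of fingers went with the same split, since 134 of 144 members with 10 or more fingers were below 0 between SePC-La and Laser (median -0.28), against 90 of 114 with fewer (median -0.18). Without a KRAB box, the 39 members with 10 or more fingers had a median of -0.19 and the 72 with fewer one of -0.15. All 11 members with a SCAN domain were below 0, with a median of -0.25. The difference between these classes was not tested.

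Zinc finger genes with other names were also below 0. The 47 tested KRAB genes with other names, such as Rbak and Zik1, had a median of -0.33 between SePC-La and Laser and of -0.32 between SePC-La and PC-La. In the former comparison 43 were below 0 and 12 (25.5%, background 7.24%) were lower at an unadjusted p under 0.05. The 127 other genes with at least 3 fingers and no KRAB box had medians of -0.18 and -0.14. Of these, 19.7% and 22.0% were lower at that p (backgrounds 7.24% and 14.4%). The 31 tested Zbtb genes, which join fingers to a BTB domain, had medians of -0.18 and -0.08, and the 14 Zscan and Zkscan genes had -0.20 and -0.16. The 11 Klf genes, short proteins that bind GC-rich promoters, had -0.12 and 0.35, with 7 and 3 below 0.

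Zfp758, a KRAB member with 12 fingers, had 5.50 and 5.87 FPKM under Laser, 4.73 and 6.22 under PC-La and then 2.93 and 3.20 under SePC-La. Both SePC-La samples were below the other 4. The difference was -0.72 ± 0.16 (SE) between SePC-La and Laser (unadjusted p = 0.00337, adjusted p = 0.376) and -0.66 ± 0.16 between SePC-La and PC-La (unadjusted p = 0.00496, adjusted p = 0.126), and the latter p was 0.0559 without PC-La 2. Zfp266, with a KRAB box and 9 fingers, had 9.68 and 10.5 FPKM under Laser, 9.46 and 9.77 under PC-La and then 6.55 and 6.65 under SePC-La. Its replicates lay close together and its SePC-La ratio to Laser was 0.654. The difference was -0.55 ± 0.12 between SePC-La and Laser (unadjusted p = 0.00356) and -0.48 ± 0.12 between SePC-La and PC-La (unadjusted p = 0.00651).

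Zfp273 had 3.13 and 2.83 FPKM under Laser, 3.37 and 2.85 under PC-La and then 1.44 and 1.64 under SePC-La. It was near 0.5 of its level in the other groups, with ratios of 0.517 and 0.496 and differences of -0.65 ± 0.16 (unadjusted p = 0.00521) and -0.69 ± 0.16 (unadjusted p = 0.00379). Its protein was at least 80% identical to that of Zfp85 in the same cluster, so that reads could be split between them. Zfp9, with a KRAB box and 12 fingers, had 5.14 and 3.73 FPKM under Laser, 5.25 and 5.54 under PC-La and then 2.75 and 2.90 under SePC-La, a difference of -0.74 ± 0.17 between SePC-La and PC-La (unadjusted p = 0.00356). Again both SePC-La samples were the lowest.

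Zfp970 differed from these in that PC-La also lay below Laser. It had 6.21 and 6.68 FPKM under Laser, 4.83 and 4.92 under PC-La and then 4.05 and 4.43 under SePC-La, and no pair of groups overlapped. The difference from Laser was -0.34 ± 0.13 in PC-La (unadjusted p = 0.0350) and -0.51 ± 0.13 in SePC-La (unadjusted p = 0.00644). The former p was over 0.05 without Laser 2 (0.0922), without PC-La 1 (0.161) and without PC-La 2 (0.139). Zfp970 and its closest member Zfp971 were at least 80% identical in protein. Zfp182, on the X chromosome, had 3.84 and 3.85 FPKM under Laser, 3.35 and 3.10 under PC-La and then 2.29 and 2.64 under SePC-La. Its 3 groups stood in the same order, with a difference of -0.49 ± 0.14 between SePC-La and Laser (unadjusted p = 0.0122, and 0.0563 without SePC-La 1).

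Of the 4 KRAB repressors listed by role, Zfp809, which silences murine leukaemia viruses, had 6.77 and 12.1 FPKM under Laser, 6.90 and 6.10 under PC-La and then 5.21 and 4.22 under SePC-La. Laser 2 was far above the other 5 samples. The difference between SePC-La and Laser was -0.83 ± 0.26 (unadjusted p = 0.0166) with a ratio of 0.499. Zfp932, a repressor of endogenous retroviruses, had 5.70 and 6.86, 5.01 and 5.66, and 4.46 and 4.59 FPKM in the same order, a difference of -0.39 ± 0.14 (unadjusted p = 0.0316). Zfp568, which represses a placental Igf2 transcript, had 3.53 and 4.30, 3.63 and 3.19, and 3.28 and 2.77 FPKM, a difference of -0.29 ± 0.16 (unadjusted p = 0.117). Zfp57, which keeps DNA methylation at imprinted loci, had 4.84 and 1.57 FPKM under Laser, 5.15 and 5.86 under PC-La and then 2.72 and 4.58 under SePC-La, so that its Laser samples enclosed those of SePC-La.

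**Figure D3:**
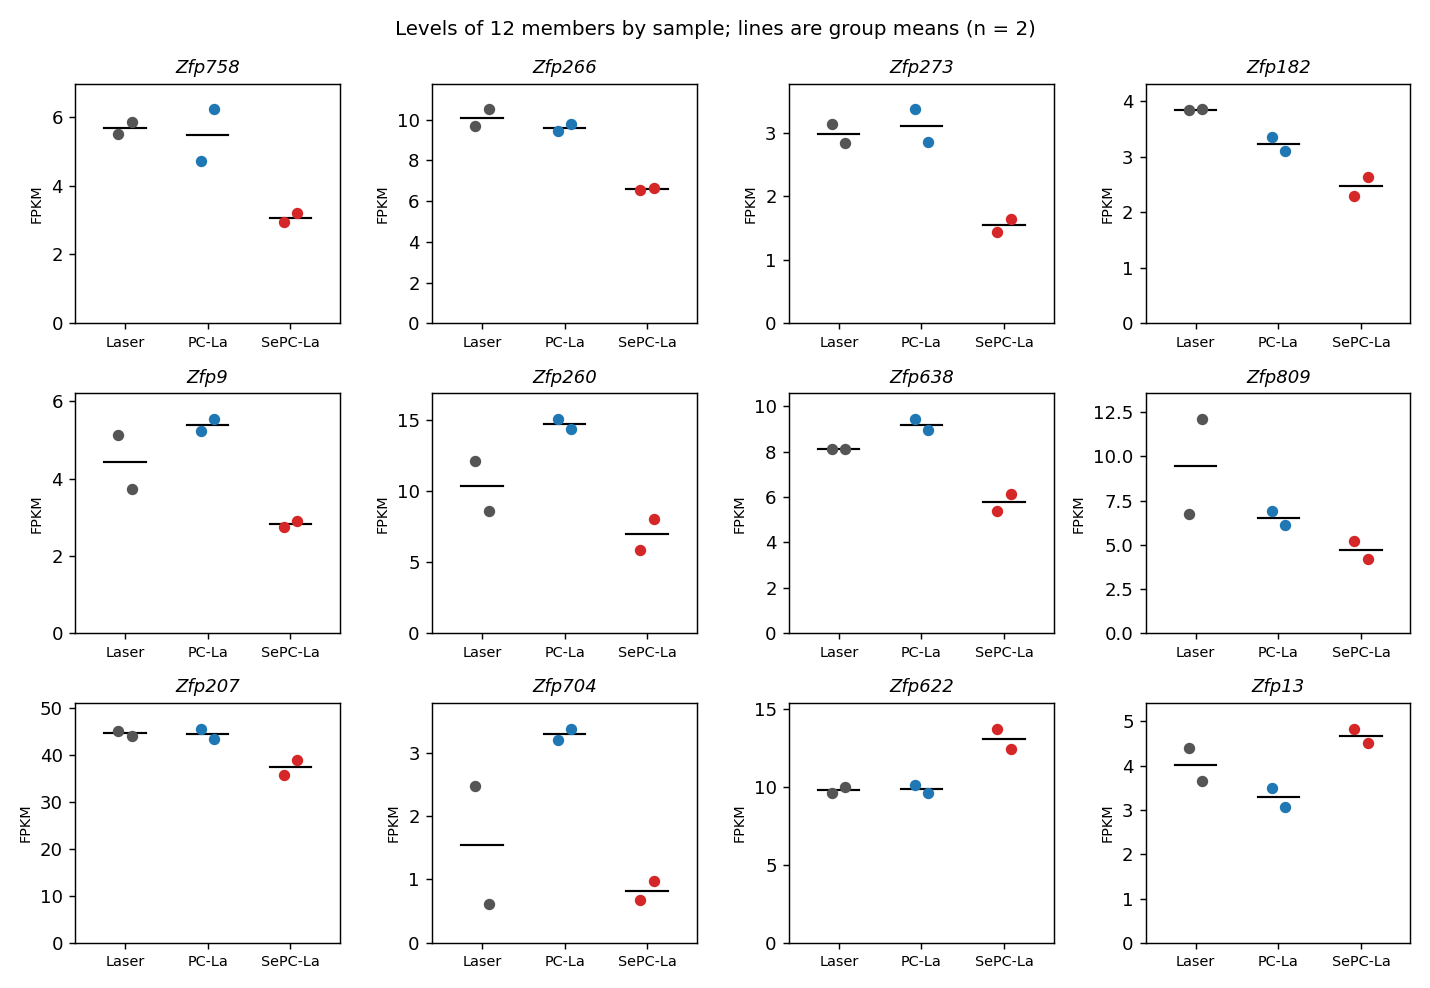
FPKM of 12 members in each of the 6 samples, with a point for each sample, a line at each group mean (n = 2) and a linear axis from 0 that differs between panels. Both SePC-La points lie below the other 4 for Zfp758, Zfp266, Zfp273, Zfp182, Zfp9, Zfp260, Zfp638, Zfp809 and Zfp207, while for Zfp622 and Zfp13 they lie above.

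Among the co-repressors that KRAB proteins use, no difference of Trim28 or Setdb1 passed the test. Trim28 had 70.2 and 52.4 FPKM under Laser, 66.6 and 65.8 under PC-La and then 63.7 and 68.4 under SePC-La, with a difference of 0.12 ± 0.16 between SePC-La and Laser and of -0.003 ± 0.16 between SePC-La and PC-La. Setdb1 had 15.2 and 14.2, 12.96 and 12.47, and 14.7 and 11.6 FPKM, with differences of -0.16 ± 0.15 and 0.04 ± 0.15. In both genes the groups of these comparisons overlapped. Of the 17 co-repressor genes listed and tested, 11 were below 0 between SePC-La and Laser (median -0.15) and 12 between SePC-La and PC-La (median -0.05). Lower at an unadjusted p under 0.05 in each of these comparisons, which share the SePC-La samples, were 3 genes, 17.6% of the list against backgrounds of 7.24% and 14.4%, named here after their values were seen. These were Cbx5, a heterochromatin protein, Tasor, a subunit of the HUSH silencing complex, and Smarcad1, a chromatin remodeler, with differences from Laser of -0.40, -0.50 and -0.46. Uhrf1, which guides maintenance of DNA methylation, was higher in SePC-La than in PC-La by 0.44 (unadjusted p = 0.0458).

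Among the members without a KRAB box, Zfp260 had 12.1 and 8.60 FPKM under Laser, 15.1 and 14.4 under PC-La and then 5.88 and 8.05 under SePC-La. PC-La lay above Laser and SePC-La below it. The difference was 0.49 ± 0.20 for PC-La against Laser (unadjusted p = 0.0519), -0.51 ± 0.20 for SePC-La against Laser (unadjusted p = 0.0449) and -0.99 ± 0.20 for SePC-La against PC-La (unadjusted p = 0.00234), the smallest p of any member in that comparison. Zfp704 had 2.48 and 0.613 FPKM under Laser, 3.20 and 3.37 under PC-La and then 0.672 and 0.972 under SePC-La, a ratio of 0.250 between SePC-La and PC-La and a difference of -1.24 ± 0.36 (unadjusted p = 0.0120). Its level in Laser 2 was that of the SePC-La samples and its level in Laser 1 nearer that of PC-La. The summed fibroblast markers above had the same high and low samples within Laser, and their part in the level of Zfp704 was not tested.

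All 11 promoter-binding regulators listed by role were below 0 in both comparisons of SePC-La, with medians of -0.22 and -0.23 and 7 in each whose groups did not overlap (backgrounds 25.6% and 39.5%), while 59.8% and 58.5% of all genes were below 0. None was lower than Laser at an unadjusted p under 0.05. Zfp281, a factor of GC boxes, had 19.8 and 18.6 FPKM under Laser, 19.7 and 19.8 under PC-La and then 15.91 and 16.03 under SePC-La. Its samples did not overlap between SePC-La and the others, with differences of -0.25 ± 0.11 (unadjusted p = 0.0634) and -0.29 ± 0.11 (unadjusted p = 0.0392). Zfp217, an oncogene amplified in breast cancer, had 13.05 and 12.28, 13.17 and 12.01, and 11.1 and 10.2 FPKM, with differences of -0.23 ± 0.13 in both comparisons. Zfp703, another such oncogene, had 20.7 and 7.95 FPKM under Laser, 21.9 and 21.5 under PC-La and then 10.96 and 15.11 under SePC-La, a difference of -0.01 ± 0.42 from Laser. Laser 1 and Laser 2 enclosed both of its SePC-La samples. The difference from Laser of the remaining 8, namely Zfp143, Zfp148, Zfp384, Zfp410, Zfp516, Zfp335, Zfp687 and Zfp592, ran from -0.30 to -0.10.

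The members that act on RNA and ribosomes lay on both sides of 0. Of 8, 5 were below 0 between SePC-La and Laser and 4 between SePC-La and PC-La, with medians of -0.02 in both. Zfp622, an assembly factor of the large ribosomal subunit, had 9.62 and 10.0 FPKM under Laser, 10.1 and 9.62 under PC-La and then 13.7 and 12.4 under SePC-La. Both SePC-La samples were the highest. The difference was 0.38 ± 0.12 from Laser (unadjusted p = 0.0196) and 0.37 ± 0.12 from PC-La (unadjusted p = 0.0213), with p over 0.05 in both without SePC-La 1 (0.0849 and 0.0907), without PC-La 1 (0.0552 and 0.0838) or without PC-La 2 (0.0551 and 0.135), and from Laser also without Laser 1 (0.0504). Zfp598, a ubiquitin ligase that senses collided ribosomes, had 29.6 and 33.3, 25.6 and 25.2, and 39.1 and 29.4 FPKM, a difference of 0.40 ± 0.16 between SePC-La and PC-La (unadjusted p = 0.0450). That p was 0.225 without SePC-La 1, 0.131 without PC-La 1 and 0.148 without PC-La 2.

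Zfp638, which binds RNA and silences unintegrated retroviral DNA, had 8.14 and 8.10 FPKM under Laser, 9.43 and 8.95 under PC-La and then 5.40 and 6.12 under SePC-La, and no pair of groups overlapped. The differences were -0.43 ± 0.13 from Laser (unadjusted p = 0.0130) and -0.59 ± 0.13 from PC-La (unadjusted p = 0.00291). Zfp326, of a complex that links transcription and splicing, had 8.10 and 8.40 FPKM under Laser, 6.65 and 5.84 under PC-La and then 5.32 and 6.33 under SePC-La, with differences from Laser of -0.35 ± 0.14 in PC-La (unadjusted p = 0.0431) and -0.44 ± 0.14 in SePC-La (unadjusted p = 0.0184). The former p was over 0.05 without any 1 of the Laser or PC-La samples, at 0.0675 to 0.241. Zfp36 (tristetraprolin), which speeds the decay of mRNAs with AU-rich elements, had 28.5 and 14.5, 23.3 and 27.6, and 20.0 and 22.4 FPKM, and the SePC-La samples lay within the range of the Laser samples. Zfp106, Zfp346 and Zfp830 differed from Laser by -0.08 to -0.002 in SePC-La.

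Of the members that act in protein tagging and mitosis, Zfp207, a kinetochore and spindle protein and the highest member by mean level, had 45.1 and 44.1 FPKM under Laser, 45.5 and 43.4 under PC-La and then 35.73 and 38.99 under SePC-La. The SePC-La samples were below the other 4, and the difference was -0.25 ± 0.12 in both comparisons (unadjusted p = 0.0707 and 0.0740). Zfp91, a ubiquitin ligase of non-canonical NF-κB signalling, had 18.7 and 16.4, 20.6 and 20.1, and 14.00 and 15.96 FPKM, a difference of -0.42 ± 0.13 between SePC-La and PC-La (unadjusted p = 0.0163). Zfp451, a SUMO ligase, had 4.84 and 4.71, 4.34 and 4.44, and 4.63 and 3.73 FPKM, and PC-La and SePC-La overlapped. The next highest members, Zfp948 and Zfp740, had means of 31.2 and 30.5 FPKM and differences from Laser of -0.23 ± 0.24 and -0.15 ± 0.15 in SePC-La.

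Between PC-La and Laser, Zfp954 and Zfp979 stood out among KRAB members. Zfp954 had 3.67 and 3.22 FPKM under Laser, 4.89 and 5.00 under PC-La and then 2.72 and 3.23 under SePC-La, a difference of 0.42 ± 0.14 (unadjusted p = 0.0246, and 0.0769, 0.108 and 0.126 without Laser 2, PC-La 1 and PC-La 2). Zfp979 had 1.83 and 3.36 FPKM under Laser, 0.623 and 1.27 under PC-La and then 2.78 and 1.98 under SePC-La, a difference of -0.87 ± 0.29 (unadjusted p = 0.0206, and 0.0937 and 0.120 without Laser 2 and PC-La 1). PC-La was lowest for it and SePC-La was above PC-La by 0.81 ± 0.29 (unadjusted p = 0.0281, and 0.156 and 0.144 without PC-La 1 and SePC-La 1). Zfp3 and Zfp358 had differences of 0.51 ± 0.21 and 0.45 ± 0.20 between PC-La and Laser, and Zfp770 and Zfp692 of -0.37 ± 0.19 and -0.37 ± 0.20, none at an unadjusted p under 0.05.

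Few members were higher in SePC-La. Besides Zfp622, the members above Laser without overlap and with the smallest p were Zfp296, Zfp707, Zfp277 and Zfp777, with differences of 0.36 ± 0.20, 0.24 ± 0.17, 0.17 ± 0.14 and 0.20 ± 0.17 and unadjusted p from 0.111 to 0.266. Zfp13 had 4.39 and 3.65 FPKM under Laser, 3.50 and 3.07 under PC-La and then 4.83 and 4.51 under SePC-La, a difference of 0.41 ± 0.15 between SePC-La and PC-La (unadjusted p = 0.0308). That p was over 0.05 without any 1 of the SePC-La or PC-La samples, at 0.0638 to 0.184. In 115 members (44.6%) both SePC-La samples were below the other 4, against 19.9% of all genes tested. In 3 members both were above the other 4, against 1251 of the 10853 genes tested.

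The members most like the rest over the 6 samples were Zfp790, Zfp189 and Zfp266, with Pearson correlations of 0.985, 0.976 and 0.974 with the mean log2 level of the other members. The 6 samples share library, depth and group, and the values are a description. The median of this correlation was 0.655, 81 members were over 0.8 and 31 were below 0. Zfp790 had 2.97 and 2.85 FPKM under Laser, 2.94 and 2.87 under PC-La and then 2.14 and 2.19 under SePC-La. Zfp189 had 4.19 and 3.94, 4.13 and 4.14, and 2.83 and 3.03. In both, the Laser and PC-La samples overlapped and the SePC-La samples were below them.

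The medians of the clusters covered a range, and differences between clusters were not tested. The largest, on chromosome 17 (chr17:21383748-22456689), held 17 members from Zfp677 to Zfp946, all with a KRAB box. All 17 were below 0 between SePC-La and Laser, with a median of -0.38, and 14 between PC-La and Laser, with a median of -0.14. The cluster on chromosome 13 (chr13:67038596-67827002), with 14 KRAB members, had 13 below 0 between SePC-La and Laser and a median of -0.24, but 3 below 0 between PC-La and Laser and a median of 0.09. In the cluster chr7:29768552-30169750, which holds Zfp260, all 11 members were below 0 between SePC-La and Laser (median -0.29). The 8 members in chr7:127233061-127615797, 4 of them with a KRAB box, had a median of 0.002, with 4 below 0, and against PC-La a median of -0.13 with 7 below 0 (all genes, -0.07). Members in clusters and outside them had medians of -0.25 and -0.21 between SePC-La and Laser and of -0.26 and -0.22 between SePC-La and PC-La.

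**Figure D4:**
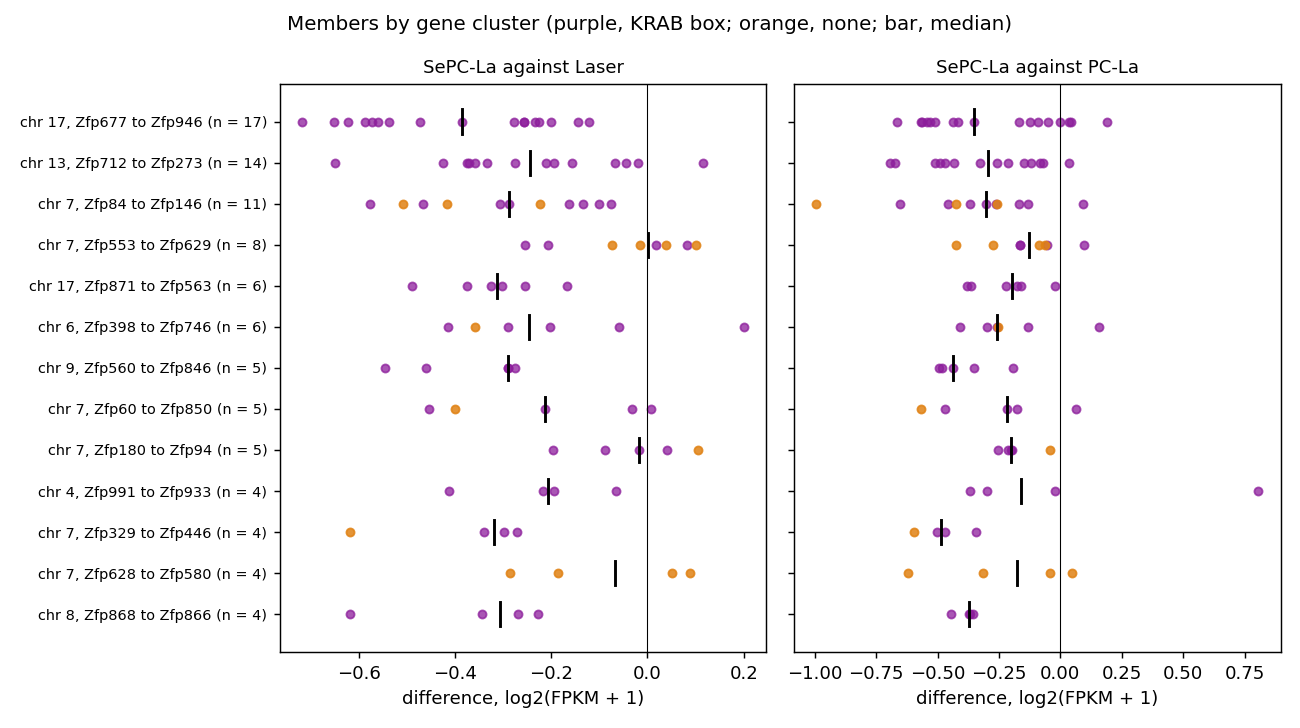
Difference of log2(FPKM + 1) of each member in the 13 clusters with at least 4 members, for SePC-La against Laser (left) and SePC-La against PC-La (right), with a point for each member (purple, KRAB box; orange, none) and a bar at the median. All 17 points of the largest chromosome 17 cluster lie below 0 on the left, while the 8 of the chromosome 7 cluster from Zfp553 to Zfp629 lie on both sides.

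The level, length and base composition of the members differ from those of other genes, and the median difference of other genes also varied with level. The median member had 3.902 FPKM (all genes tested, 8.95), a transcript GC content of 44.4% (49.6%) and an exon length of 4715 bases (4444.5). Between SePC-La and Laser the members with a mean of 2 to 5 FPKM had a median of -0.28 and the other genes of that range one of -0.14, and at 10 FPKM and over the medians were -0.11 and 0.01. Between SePC-La and PC-La, members of 1 to 2 FPKM had a median of -0.20 and other genes one of -0.21, although 85.5% of these members and 71.5% of these other genes were below 0. At or under the members' median GC content, 121 of 129 members were below 0 between SePC-La and Laser (median -0.29), and the other genes of that GC range had a median of -0.14. Genes with exons as long as the members' median or longer had medians of -0.27 for members and -0.15 for others. The part of level, GC content and length in the shift was not tested.

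**Figure D5:**
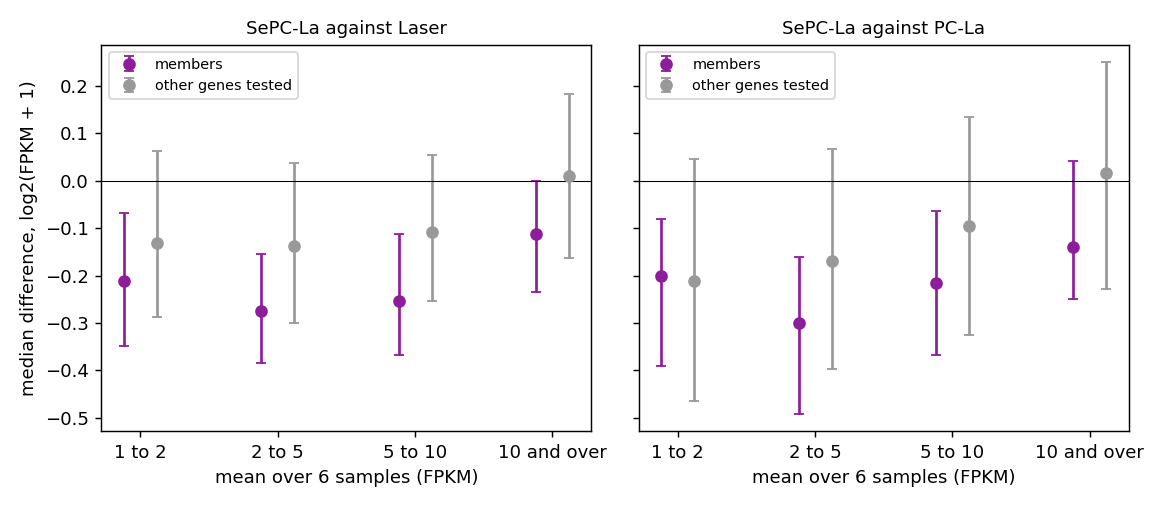
Median difference of log2(FPKM + 1) by the mean level over 6 samples, in FPKM, for members (purple) and all other genes tested (gray), in SePC-La against Laser (left) and SePC-La against PC-La (right), with bars from the lower to the upper quartile. The members' medians lie below 0 in every range, and in the range from 1 to 2 FPKM on the right the medians are -0.20 and -0.21.

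The ribosomal protein genes were above 0 in SePC-La. Of the 88 tested, 82 were above 0 between SePC-La and Laser (median 0.29), and 25 were higher at an unadjusted p under 0.05 (background 4.9%). Against PC-La the median was 0.37 and 45 were higher (background 9.91%). All listed ribosomal protein genes held 11.6% and 13.9% of the FPKM under Laser, 12.1% and 11.5% under PC-La and 15.5% and 14.1% in SePC-La. Their part in the members' shift was not tested. With samples scaled to the median ratio, which set the median of all genes to -0.01 in both comparisons of SePC-La, the members' medians were -0.18 and -0.17.

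Just inside the minimum mean of 1 FPKM were Zfp991 and Zfp599, with means of 1.00 and 1.01 FPKM, and just outside Zfp799 and Zfp362, with 0.931 and 0.921. The 99 genes under it had medians of 0.177 and 0.159 FPKM under Laser, 0.191 and 0.198 under PC-La and then 0.0880 and 0.126 under SePC-La, again lowest in SePC-La. Among them were Zfp521 (mean 0.353 FPKM), Zfp423 (0.146) and Zfp593 (0.0725), while Zfp42 (Rex1), a marker of embryonic stem cells, was listed at 0.

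Promoters were looked up for 213 members in the RefSeq table of GRCm38.p6 (259 windows from 250 bases before to 50 after a start), and both strands were searched. CCAAT was in 47.5% of the members' windows, in 55.6% of those of KRAB members and in 37.4% of all 32851 windows, and members with and without it had medians of -0.26 and -0.20 between SePC-La and Laser. The motif CCGGAAG of ETS factors was in 20.1% of the members' windows, 18.5% of those of tested genes and 8.86% of all, with medians of -0.21 and -0.25 with and without it. ACTACAATT, a part of the motif that Zfp143 binds, was in 2.70% of the members' windows, 0.748% of those of tested genes and 0.393% of all. The 7 members with it had a median of -0.07, with 5 below 0, and the 206 without it one of -0.25.

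Members can share reads where their sequences are close. Of the 258 members, 205 had a relative among the members that aligned over at least 70% of the longer protein, with a median identity of 49.0%, and 10 had one of at least 80% identity. Leaving these 10 out, 214 of 248 members were below 0 between SePC-La and Laser and the medians were -0.24 in both comparisons of SePC-La. The setting of the counting for strand is not given in the sources used here, so that reads from a gene and an antisense partner cannot be told apart.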

How the data were processed

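Total RNA of 6 samples of tumor tissue, 2 per group, was sequenced on an Illumina HiSeq X10. Per the labels, the submitters' processing notes name HISAT2 2.0.5, HTSeq 0.9.1, DESeq 1.30.0 and the build mm9. The authors deposited 1 table of normalized values whose unit is not named. Multiplied by the exon lengths of GENCODE M21 (GRCm38), the values of 97.8% of genes gave whole reads within 0.02 in all samples, so the deposited values were taken as FPKM, used with no further scaling between samples. The depth was 14447792 to 17649489 recovered reads, with a median of 289 reads per member and sample. Coordinates are those of GENCODE M21, not of the named build.

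Genes whose mean reached 1 FPKM (10853) were tested with limma 3.58.1 (R 4.3.3) on log2(FPKM + 1), with a mean for each of the 3 groups, trend and robust estimation, and Benjamini-Hochberg adjustment over all genes tested. A call is an unadjusted p under 0.05 unless an adjusted p is named. The members and the gene lists were chosen with earlier results of these data known. Named members were, for each comparison, the 5 higher and 5 lower members with the smallest p among those whose groups did not overlap, the members with a listed role, the 3 highest, those at the border of the minimum, and the 3 most like the rest. KRAB and SCAN domains were found with profiles (pyhmmer 0.12.3, E-value 0.0001) built from 184 and 20 windows, fingers by pattern, and relatives with BLAST+ 2.17.0+. Tables and plots were made in Python 3.11.15 using pandas 2.3.3, NumPy 2.4.6 and, for figures, matplotlib 3.10.9. The scripts were tested on simulated data. Alternatives were other pseudocounts, filters, scalings and moderation, the replicate number as a block, a fit on 4 samples, each sample left out, and voom on the recovered reads, which was added after the data were seen.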

Additional observations from a re-analysis of the deposited data

Results flagged for a closer look

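For 5 of the members named above, the difference from Laser lay on opposite sides of 0 in PC-La and SePC-La, with no overlap between groups. Such a pattern itself sets SePC-La apart from PC-La. All 18 members with it had an unadjusted p under 0.05 by limma for the direct difference between SePC-La and PC-La, so that this p is no further support. That difference on the log2 scale was -0.9937 for Zfp260, -0.7414 for Zfp9, -0.5933 for Zfp638, -0.4207 for Zfp91 and 0.4052 for Zfp13. Over all members, 17 of 258 (6.59%) had PC-La above and SePC-La below Laser without overlap, near the 4.51% of all genes tested, and 1 had the reverse. For Zfp13, PC-La was below Laser and SePC-La above, and for the other 4 it was the reverse. None of the 5 had an adjusted p under 0.05, and all 5 rest on the same Laser samples.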

How the results depend on the processing

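No alternative reversed a median that was below 0 in SePC-La, and none of the 434 values of single members under the alternatives changed sign (367 stayed on their side of the threshold of 0.05, 41 rose above it and 26 came below it). Of the 19 named comparisons past that threshold, 8 stayed past it in every setting.

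For SePC-La against Laser the members' median was -0.2869 with a pseudocount of 0.1, -0.1843 with median-ratio scaling, -0.1295 with quantile normalization, -0.1783 without a filter (357 genes) and -0.3018 with voom on the recovered reads. The medians of all genes were -0.0732, -0.0066, -0.0098, -0.0262 and -0.0697 in this order. The lower members numbered 25 with median-ratio scaling (9.69%, all genes 4.70%). With quantile normalization they were 15 (5.81%), near the 4.40% of all genes, and 2 were higher (all genes 5.02%). At a minimum mean of 5 FPKM they were 19 of 102 (18.6%, all genes 6.84%). With only the 4 samples they were 19 (7.36%, all genes 3.58%), and 0 were higher (all genes 2.87%). For SePC-La against PC-La the median was -0.3155, -0.1746, -0.0755 and -0.2 in the same order, -0.1905 at the minimum of 5 FPKM and -0.3239 with voom. Those of all genes were -0.0872, -0.0089, 0.0096, -0.0314, -0.0272 and -0.0878. Quantile normalization gave 20 lower members (7.75%, all genes 10.6%). The minimum of 5 FPKM gave 18 lower (17.6%, all genes 12.7%) and 2 higher (all genes 12.5%). For PC-La against Laser the median was -0.0514 with quantile normalization (all genes, -0.0285). The higher members numbered 4 with median-ratio scaling, with quantile normalization and without trend and robust estimation, 8 without a filter and 3 with only the 4 samples. In these settings 3.59% to 3.86% of all genes were higher.

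With each sample left out, medians ran from -0.2434 to -0.2313 for SePC-La against Laser, from -0.2494 to -0.2259 for SePC-La against PC-La and from -0.0153 to 0.0191 for PC-La against Laser. Lower members ran from 20 to 64, 14 to 83 and 0 to 21, and higher members from 0 to 4, 0 to 5 and 0 to 29. The sample left alone in its group was assumed to vary like the others. Under the replicate block, with the sample number as a term, the lower members numbered 29 (11.2%, all genes 5.03%), 40 (15.5%, all genes 10.8%) and 1 (0.388%, all genes 1.78%). The labels do not say that a number pairs samples, and the deviations of same-numbered samples correlated at -0.428, -0.177 and 0.0862 in the same order. The cause of these moves was not tested.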
